A study of Mus musculus with 71 samples.

Results

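Mouse embryonic stem (ES) cells without Ezh1 and Ezh2, named dKO (double knockout) in the labels, were compared with wild-type cells (WT) by RNA sequencing. The members of the comparison were chosen by the labels alone: 3 dKO and 3 WT libraries, 6 of the 71 samples of the series and 6 of its 9 RNA libraries, with every gene of the count tables. Both groups are labelled C57BL/6, were grown on gelatin in 2i medium and differ by the labels only in genotype, dKO carrying the loss of Ezh1 and Ezh2 and WT neither. The other 3 RNA libraries, labelled as an EZH2 rescue that re-expresses wild-type EZH2, are not compared here. They entered the fit and so took part in the filter on low counts, the scaling and the estimate of the spread between libraries. The labels name no driver or separate culture for either group. The names of the dKO libraries share a number that is not explained and may be that of a single clone. The p-values therefore measure the spread between these libraries, which may be technical.

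Ezh1 and Ezh2 encode the alternative catalytic subunits of Polycomb repressive complex 2 (PRC2), which with the core subunits Eed and Suz12 methylates lysine 27 of histone H3. The mark is known to cover the promoters of silent developmental genes in ES cells, many of them rich in CpG dinucleotides, and to be read by Polycomb repressive complex 1 (PRC1). 2i medium contains inhibitors of MEK and of GSK3 and keeps cultures in naive pluripotency, a state in which they are known to survive without PRC2.

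Levels are given in CPM, read counts scaled to library size with the TMM method, and differences as log2 fold changes of dKO over WT with the standard error (SE) of the edgeR fit. CPM is not divided by transcript length, so levels are compared between libraries and not between genes. A gene was called, and is said to have risen or fallen, at a Benjamini-Hochberg adjusted p under 0.05 in edgeR's two-sided quasi-likelihood test over the 14145 of 24222 genes that passed the filter on low counts. By this rule 64.7% of the tested genes were called, 33.7% rose and 31.0% fell. These shares over all levels are the background for the counts below, but they varied with the level of a gene, as described below. Among the called genes named below, only Fos and H2-Eb1 had WT and dKO libraries that overlapped.

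The WT libraries held 15018882 to 22249263 counts and the dKO libraries 12457622 to 23549185. With 3 counts as the limit for a gene at 0 counts, its level could reach 0.226 CPM in the shallowest of the 9 RNA libraries. dKO replicate 3 stood apart from the other dKO libraries. In it 87 genes lay more than 2-fold from both other dKO libraries, 42 higher and 45 lower, against 6 in dKO replicate 1 and 1 in dKO replicate 2. Without that library 5074 genes rose and 4744 fell, against 4769 and 4382 with it. Chromosomes 3 and 14 also differed as a whole between dKO replicate 3 and the other dKO libraries, and the first 20 Mb of chromosome X differed between dKO and WT, as described at the end.

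Ezh1 was at 53.4, 48.4 and 47.9 CPM in WT and at 2.34, 1.83 and 1.80 CPM in dKO (log2 fold change -4.68, SE 0.138, adjusted p = 2.35e-10). Ezh2 was at 308, 314 and 309.9 CPM in WT and at 192, 191 and 214 CPM in dKO, and fell by 0.64 (SE 0.0576, adjusted p = 1.4e-06). Both targeted genes were thus lower in every dKO library, Ezh1 by 25.6-fold and Ezh2 by 1.56-fold. Counts per gene do not show whether an exon is missing, so the remaining Ezh2 reads say nothing about the protein. The ES cell genes Pou5f1, Nanog, Sox2, Esrrb, Klf4 and Tfcp2l1 were abundant in all 6 libraries, between 285 CPM for the lowest Klf4 value and 1821 CPM for the highest Tfcp2l1 value.

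The promoters of 6 genes of the comparison show a range of sequence. Each is the RefSeq window of 300 bases (GRCm38.p6), from 250 bases before to 50 after an annotated start site, written 5′ to 3′ on the gene's own strand with each CpG dinucleotide in capitals. CG reads the same on both strands. The 4 first genes rose and lie near a Suz12 peak of wild-type 129B6F1 cells, a different strain from the RNA libraries, while Chit1 and Vim, the one among the largest rises and the other among the largest falls of genes reaching 20 CPM, lie far from any.
Col4a1: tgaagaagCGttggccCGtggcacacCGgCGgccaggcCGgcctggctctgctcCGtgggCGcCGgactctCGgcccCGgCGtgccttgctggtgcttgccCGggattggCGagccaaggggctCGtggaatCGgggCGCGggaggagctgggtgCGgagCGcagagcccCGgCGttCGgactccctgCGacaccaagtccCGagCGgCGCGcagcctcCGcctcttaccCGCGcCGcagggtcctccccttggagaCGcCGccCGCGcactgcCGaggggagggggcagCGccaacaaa
Ephb2: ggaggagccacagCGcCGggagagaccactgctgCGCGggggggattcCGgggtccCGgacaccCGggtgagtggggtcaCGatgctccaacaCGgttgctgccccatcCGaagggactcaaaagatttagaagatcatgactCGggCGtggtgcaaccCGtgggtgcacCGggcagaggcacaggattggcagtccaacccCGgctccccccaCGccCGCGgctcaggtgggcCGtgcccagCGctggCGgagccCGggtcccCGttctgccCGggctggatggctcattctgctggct
Hoxa10: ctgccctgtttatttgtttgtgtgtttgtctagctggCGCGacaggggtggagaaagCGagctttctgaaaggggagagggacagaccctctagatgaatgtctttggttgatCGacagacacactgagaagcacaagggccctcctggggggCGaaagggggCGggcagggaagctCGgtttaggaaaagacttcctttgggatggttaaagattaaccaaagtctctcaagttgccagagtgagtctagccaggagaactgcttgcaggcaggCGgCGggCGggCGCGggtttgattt
Dnmt3l: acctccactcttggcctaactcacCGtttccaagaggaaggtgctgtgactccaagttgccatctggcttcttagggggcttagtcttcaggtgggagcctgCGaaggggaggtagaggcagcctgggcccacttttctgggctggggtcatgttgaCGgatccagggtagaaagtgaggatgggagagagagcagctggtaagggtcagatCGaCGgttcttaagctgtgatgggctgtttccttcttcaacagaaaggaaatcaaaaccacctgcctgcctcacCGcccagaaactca
Chit1: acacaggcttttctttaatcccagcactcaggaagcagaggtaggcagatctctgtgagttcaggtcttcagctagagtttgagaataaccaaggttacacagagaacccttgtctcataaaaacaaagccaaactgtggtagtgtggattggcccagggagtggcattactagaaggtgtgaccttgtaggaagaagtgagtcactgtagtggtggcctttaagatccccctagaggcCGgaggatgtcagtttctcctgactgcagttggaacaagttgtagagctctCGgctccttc
Vim: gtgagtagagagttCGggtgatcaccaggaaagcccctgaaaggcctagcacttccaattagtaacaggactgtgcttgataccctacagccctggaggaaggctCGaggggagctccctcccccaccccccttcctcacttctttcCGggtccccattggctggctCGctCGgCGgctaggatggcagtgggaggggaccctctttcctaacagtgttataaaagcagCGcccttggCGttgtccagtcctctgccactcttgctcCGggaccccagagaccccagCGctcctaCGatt

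The Col4a1 window (chr8:11312777-11313076, minus strand) holds 37 CpG and lies wholly inside a Suz12 peak of 2847 bases. Of the 32851 promoter windows of the table, with a median of 7 CpG, 5.58% hold as many. The Ephb2 window (chr4:136835963-136836262, minus strand) holds 24 CpG and has 205 of its bases in a peak of 1686 bases. The Hoxa10 window (chr6:52240805-52241104, minus strand), the first of 2 listed starts, holds 12 CpG and lies inside a peak of 4230 bases. These promoters thus differ widely in CpG content although each lies at a Suz12 peak. The Dnmt3l window (chr10:78042037-78042336, plus strand), the first of 3 listed starts, holds 6 CpG, and its nearest peak, 599 bases wide, lies 986 bases away. The Chit1 window (chr1:134110992-134111291, plus strand) holds 2 CpG with the nearest peak 123302 bases away. The Vim window (chr2:13574061-13574360, plus strand) holds 11 CpG with the nearest peak 218916 bases away.

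Changes in the 2 directions differed in size. Rises of over 2-fold were called for 19.1% of the tested genes (2707) and falls of over 2-fold for 4.39% (621). Beyond 4-fold there were 1429 rises and 137 falls, and beyond 16-fold 280 rises and 15 falls. The median log2 fold change over all tested genes was -0.00, a value that the TMM scaling holds near 0. The WT and dKO libraries did not overlap for 68.0% of the tested genes, with all dKO libraries above WT for 34.8% and below WT for 33.2%.

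The largest rises among genes reaching 20 CPM, leaving out symbols that are only clone or predicted-gene identifiers, were of unlike functions. Chit1, a chitinase of macrophages, was at 0.757, 0.933 and 0.825 CPM in WT and at 30.5, 33.2 and 39.9 CPM in dKO (log2 fold change 5.34, SE 0.232, adjusted p = 3.52e-09), a 40.6-fold rise. Ccnd2, which encodes the cell cycle protein cyclin D2, was at 1.24, 1.54 and 1.24 CPM in WT and at 61.1, 65.6 and 32.5 CPM in dKO (5.28, SE 0.303, adjusted p = 5.8e-08). Chit1 was alike in the 3 dKO libraries, whereas Ccnd2 was lower in dKO replicate 3 than in the other dKO libraries and still far above WT. Vnn1, a pantetheinase, went from 0.620, 0.746 and 0.980 CPM to 29.8, 28.7 and 31.3 CPM (5.23, SE 0.159). Cbln1, a secreted organizer of cerebellar synapses, went from 2.20, 2.14 and 2.06 CPM to 63.3, 55.3 and 57.3 CPM (4.77, SE 0.108). Igf2, an imprinted fetal growth factor, was at 1.51, 0.746 and 0.619 CPM in WT and at 17.4, 17.7 and 37.9 CPM in dKO (4.74, SE 0.397). For Igf2 dKO replicate 3 was the highest, and no library of the 2 groups overlapped for any of these 5 genes.

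The other 7 of the 12 largest rises were the actin-associated Pdlim4 (5.10), the tubulin gene Tuba3b (4.90), the proton pump subunit Atp6v1c2 (4.79), the proton and potassium pump Atp12a (4.73), the annexin Anxa2 (4.72), the matrix glycoprotein Emilin3 (4.50) and the homeobox gene Rhox6 (4.26), given as log2 fold changes. Tuba3b shares sequence with Tuba3a and Rhox6 with other Rhox genes, so their counts are uncertain. AU022751, left out here as an identifier and described with PRC2, lies between Emilin3 and Rhox6 in size (4.38). Pdlim4, Atp6v1c2 and Anxa2 carry a Suz12 peak under 1 kb wide at the start site, Atp12a and Emilin3 one of 1 to 3 kb, and Ccnd2, Cbln1 and Igf2 one of 3 kb or more. Chit1, Vnn1, Tuba3b and Rhox6 carry none.

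**Figure D1:**
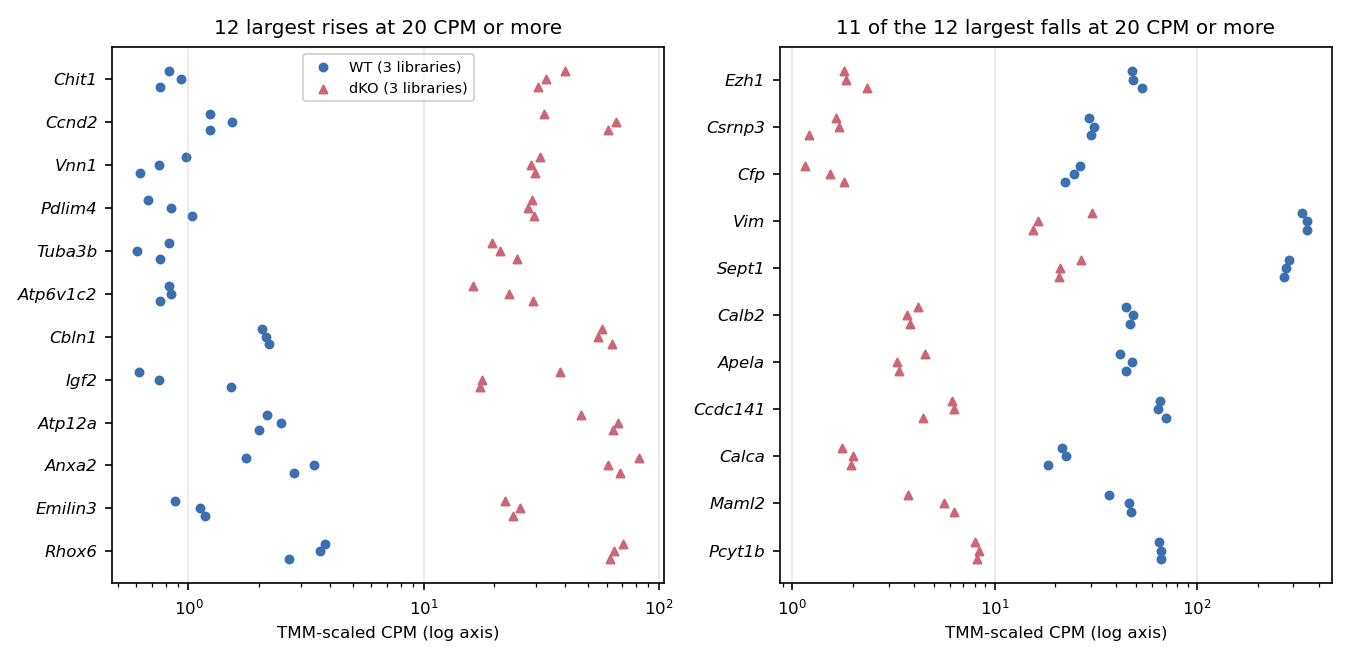
CPM (log axis) of the 12 largest rises and 11 of the 12 largest falls in each of the 3 WT and 3 dKO libraries, 1 point a library. The libraries of the 2 groups do not overlap for any gene shown, and dKO replicate 3 is the lowest dKO library for Ccnd2 (32.5 CPM) and the highest for Igf2 (37.9 CPM) and Vim (30.2 CPM).

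Falls of comparable size were fewer and were also of unlike functions. Vim, the intermediate filament protein vimentin, was at 349.7, 348 and 332 CPM in WT and at 15.5, 16.3 and 30.2 CPM in dKO (-4.03, SE 0.205, adjusted p = 5.5e-08). Vim was higher in dKO replicate 3 than in the other dKO libraries but stayed far under WT. Sept1, a septin, went from 269, 277 and 285 CPM to 20.7, 21.1 and 26.8 CPM (-3.59, SE 0.0906). Calb2, the calcium-binding protein calretinin, went from 46.5, 48.3 and 44.4 CPM to 3.84, 3.71 and 4.19 CPM (-3.56, SE 0.0856). Among the 12 largest falls were also Ezh1, Csrnp3 (-4.27), the complement regulator properdin Cfp (-4.07), the secreted peptide Apela (-3.55), Ccdc141 (-3.53), the calcitonin gene Calca (-3.45), the Notch coactivator Maml2 (-3.09) and the phosphatidylcholine synthesis enzyme Pcyt1b (-3.01). Of the falls named here, only Calb2 carries a Suz12 peak at the start site, under 1 kb wide.

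The direction of change varied with the level of a gene. Among the 1397 tested genes with a mean under 1 CPM over the 6 libraries, 55.5% rose and 8.66% fell. From 1 to 5 CPM, 54.9% of 2215 genes rose and 15.8% fell. From 5 to 20 CPM, 40.1% of 2932 rose and 25.1% fell. Rises gave way to falls above that level. From 20 to 100 CPM, 25.5% of 5030 rose and 36.4% fell, and at 100 CPM or more 12.5% of 2571 rose and 52.2% fell. A low gene could pass the filter through 1 group alone and had then to be higher in it, so the shares in the lowest classes describe the tested genes only.

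Many genes with few or no counts in WT had counts in dKO. Of 9682 genes with 0 to 3 counts in each WT library, 358 passed the filter and 163 had a dKO mean of at least 1 CPM, while of 8416 genes with 0 to 3 counts in each dKO library, 20 passed and 6 had a WT mean of at least 1 CPM. Sphkap, an anchor of protein kinase A, had 0 counts in WT and 326 in dKO, at 4.67, 5.33 and 5.55 CPM, and was at least 97.4-fold higher, taking 3 counts over the WT group as the floor. Itga11, a collagen-binding integrin, had 2 counts in WT against 533 in dKO (ratio 239, 95% counting interval 65.8 to 1978), at 9.04, 8.96 and 8.10 CPM. Hpcal4, a neuronal calcium sensor, had 1 count in WT against 378 in dKO (ratio 339, 95% counting interval 60.5 to 13419). All 3 were at nearly the same level in each dKO library, unlike Ly6a, a surface antigen of blood progenitors, which had 4 counts in WT and was at 4.45, 3.37 and 13.3 CPM in dKO. The proteoglycan Cspg4 and the developmental transcription factors Barx1, Pax8 and Six2 were at 2.90 CPM or more in each dKO library and at 0.155 CPM or less in each WT library.

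In the other direction Foxr2, a forkhead factor gene, had 56 counts in WT and 0 in dKO and was at least 20.8-fold higher in WT. Filip1, Hdhd1a, Slc26a5 and Tmprss5 were at 1.44 to 3.86 CPM in the WT libraries and at no more than 0.151 CPM in any dKO library.

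A Suz12 peak at the start site went with more and larger rises. Of the 10319 tested genes with no peak, 24.5% rose and 36.5% fell, with a median log2 fold change of -0.10. Where the widest peak was under 1 kb, 47.5% of 1687 rose and 20.6% fell (median 0.23). With a peak of 1 to 3 kb, 66.1% of 1815 rose and 13.0% fell (median 0.92). With a peak of 3 kb or more, 80.4% of 275 rose and 8.0% fell (median 1.95). The share that rose was thus higher in each class of wider peaks. The filter passed 53.9% of the genes with no peak, 83.0%, 74.9% and 60.4% of those in the classes of rising width.

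Level and peak both varied with the change. At a mean of 20 to 100 CPM, where the filter bears less, 19.6% of 3871 genes with no peak rose, against 38.2% of 638 with a peak under 1 kb, 53.4% of 479 with one of 1 to 3 kb and 75% of 24 with one of 3 kb or more. At 100 CPM or more, 11.2% of 2241 genes with no peak rose, 18.1% of 216 with a peak under 1 kb and 28.0% of 107 with one of 1 to 3 kb. The order of these classes was therefore the same at both levels. The peaks were called in another strain and come from a list of 7480, with no value per peak.

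**Figure D2:**
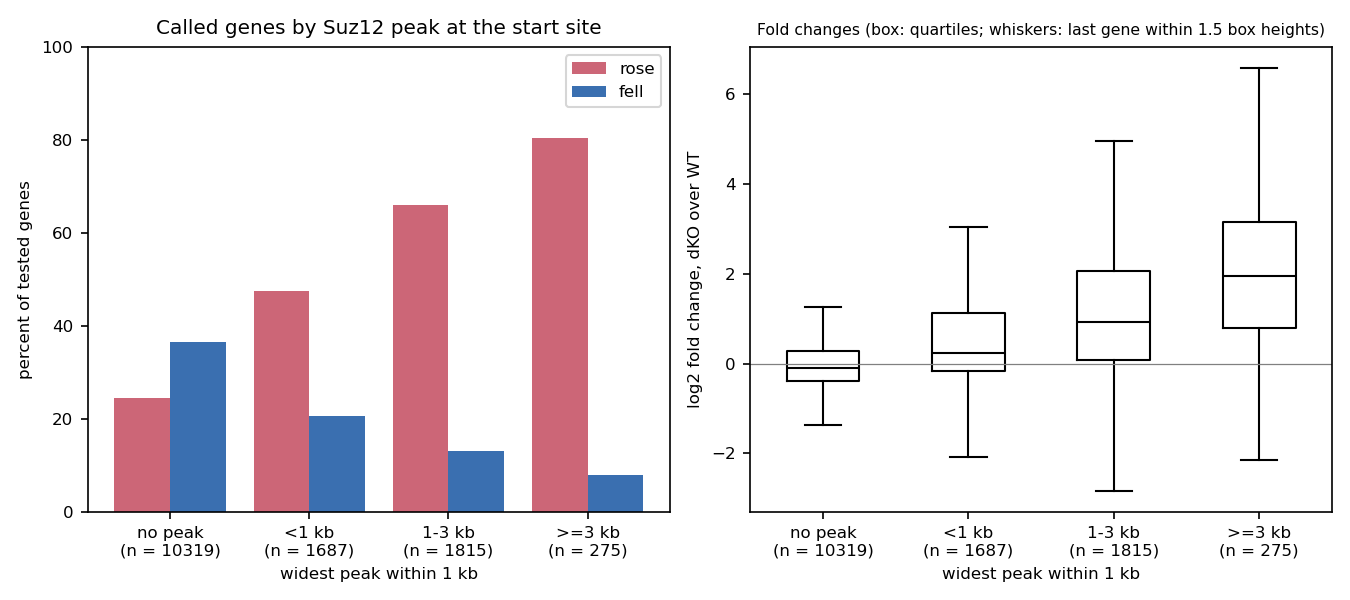
Log2 fold changes of dKO over WT for tested genes by the width of the widest Suz12 peak at the start site (right, box: quartiles, whiskers: last gene within 1.5 box heights), beside the percent of genes that rose and fell (left). The median moves from -0.10 with no peak to 0.23, 0.92 and 1.95, and the share that rose from 24.5% to 80.4%.

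CpG content of the promoter window was known for 11160 tested genes. It was taken from the first listed start of a gene, whereas the peak could lie at any of its listed starts. The classes were not split by level. With a peak, 65.4% rose at 0 to 4 CpG, 57.8% at 5 to 9, 60.5% at 10 to 19, 58.7% at 20 to 29 and 55.6% at 30 or more. Without a peak, 34.9%, 35.2%, 24.9%, 18.8% and 17.3% rose in the same classes. The median log2 fold change went from 0.95 at 0 to 4 CpG to 0.43 at 30 or more with a peak, and from -0.01 to -0.12 without one. In every class of CpG content the share that rose was higher with a peak than without, and the shares and medians of the lowest class lay above those of the highest in both. Whether CpG content acts differently with and without a peak was not tested.

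The gene groups were as follows, taken from the most direct partners of the lost enzymes outwards. Each count is of members that passed the filter on low counts, describes those members only and is read beside the background of 33.7% rising and 31.0% falling and a median of -0.00. That background is not matched for level. Under 1 CPM 55.5% of the tested genes rose and 8.66% fell, and at 100 CPM or more 12.5% rose and 52.2% fell. Whether a list differs from genes of its own level was not tested. A Suz12 peak at the start site was carried by 3777 of the 14145 tested genes and by 4911 of all 24222 genes. Many members that did not pass were at or near 0 in all 6 libraries. A filter at a mean of 2 CPM does not test members under that level. It left fewer rises in many lists, as the closing section gives, and turned or evened the balance in some of them. In whole cultures, more cells of a type and more RNA per cell cannot be told apart.

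Of the 6 genes of the PRC2 core, 5 fell. Eed was at 239.8, 246 and 232 CPM in WT and at 129.6, 119.5 and 143 CPM in dKO (-0.87, SE 0.0676, adjusted p = 4.13e-07). Rbbp7, a histone-binding subunit, went from 509, 527 and 537 CPM to 233, 231 and 285 CPM (-1.07, SE 0.0784), and Rbbp4 fell by 0.37. Suz12 went the other way at 455, 442 and 478 CPM in WT and 486, 509.8 and 649 CPM in dKO (0.26, SE 0.094, adjusted p = 0.0301). Suz12 depended on dKO replicate 3: without it the value was 0.12, and Suz12 did not pass in 4 of the alternative fits, with adjusted p between 0.0534 and 0.103.

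Among 9 accessory subunits and the inhibitor of PRC2, 3 rose, 2 fell and 4 did not pass. Without dKO replicate 1, 5 rose. AU022751, which encodes the PRC2 inhibitor EZHIP, was at 1.24, 1.40 and 1.44 CPM in WT and at 28.6, 31.9 and 25.7 CPM in dKO (4.38, SE 0.155, adjusted p = 8.3e-10). It lies in the first 20 Mb of chromosome X, where genes were higher as a group. The Polycomb-like subunit Mtf2 fell by 0.79 (SE 0.0894), from 482, 482 and 556 CPM to 274, 286 and 317 CPM, and its relative Phf19 rose by 0.73 (SE 0.151). Jarid2, a subunit that helps recruit PRC2, rose by 0.26, and Aebp2 was at 119, 121 and 136 CPM in WT and 102, 104 and 133 CPM in dKO (-0.15, adjusted p = 0.195).

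PRC1 genes changed in both directions, with 9 of 22 rising, 8 falling and a median of -0.08. The chromobox reader Cbx8 rose by 1.75, from 3.72, 3.31 and 2.63 CPM to 11, 10.9 and 10.3 CPM. Cbx7, the reader known to prevail in ES cells, fell by 0.43, from 130.1, 129 and 134 CPM to 98.8, 102 and 91.5 CPM. Chromobox genes thus moved in opposite directions. Pcgf5 rose by 1.83 (SE 0.155), Bmi1 by 0.76 and Phc2 by 0.82, whereas Phc1 went from 289.7, 285 and 282 CPM to 131, 135 and 118 CPM (-1.16, SE 0.0624). 10 of the 22 carry a Suz12 peak at the start site.

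Dnmt3l stood out among the DNA methylation genes. This catalytically inactive partner of the de novo DNA methyltransferases was at 15.8, 17.5 and 18.4 CPM in WT and at 285, 281 and 266 CPM in dKO (4.01, SE 0.0824, adjusted p = 2.47e-11), a 16.1-fold rise. The window with 6 CpG printed above is the first of its 3 listed starts, and counts per gene do not show which start was used. The maintenance enzyme Dnmt1 went from 622, 596 and 611 CPM to 358, 398 and 454 CPM (-0.59, SE 0.0768) and its partner Uhrf1 from 734, 738 and 748 CPM to 363, 409.9 and 509 CPM (-0.79, SE 0.0955). Of the 8 tested genes 3 rose and 4 fell: Dnmt3b (0.47) and the 5-methylcytosine dioxygenase Tet3 (0.73) also rose, and Tet2 (-0.91) and Dnmt3a (-0.26) also fell. Tet1 was at 416, 347 and 464 CPM in WT and at 231, 321 and 517 CPM in dKO. The dKO libraries of Tet1 spanned the WT range (-0.20, adjusted p = 0.518), and without dKO replicate 3 Tet1 passed, at -0.57.

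Pluripotency genes were mostly lower by small amounts: of 22, 15 fell and 4 rose, with a median of -0.33. Pou5f1, the core factor Oct4, was at 914, 923 and 1007 CPM in WT and at 749.9, 751 and 673 CPM in dKO (-0.39, SE 0.0729, adjusted p = 0.00055). Sox2 was at 723, 729 and 746 CPM in WT and at 569, 570.2 and 386 CPM in dKO (-0.53), lowest in dKO replicate 3. Nanog fell by 0.22 and Esrrb by 0.26. The falls over 2-fold were Lin28a, an RNA-binding repressor of let-7 maturation (-1.15, SE 0.0616), Klf5 (-1.15, SE 0.0795) and Gbx2 (-1.11). Utf1 rose from 35.4, 37.5 and 37.7 CPM to 78.5, 77.5 and 80.6 CPM (1.10, SE 0.0741) and Prdm14, Tdgf1 and Klf4 rose by 0.66, 0.52 and 0.15. Tfcp2l1 and Fgf4 did not pass (0.05 and -0.06).

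Hox genes, which specify position along the body axis, gave the most one-sided group of transcription factors by count. The tables hold 39 of them, of which 30 passed the filter and 28 of these rose, with a median of 2.85. Hoxa10 was at 0.207, 0.326 and 0.309 CPM in WT and at 17.6, 13.8 and 19.7 CPM in dKO (5.86, SE 0.267, adjusted p = 5.12e-09), and Hoxc10 at 0.620, 0.513 and 0.670 CPM and then 9.57, 11.1 and 9.62 CPM (4.07, SE 0.172). Hoxd9 went from 0.689, 0.560 and 0.619 CPM to 5.12, 5.25 and 6.11 CPM (3.15, SE 0.196), and Hoxa11 from 6 counts to 217. The summed level of the 39 genes was 46.9 to 48.6 CPM in WT and 151.5 to 154.6 CPM in dKO. Hoxc4 was at 13.0, 11.98 and 11.3 CPM in WT and at 13.4, 14.2 and 9.34 CPM in dKO (0.02), and Hoxa5 was under 0.6 CPM in all 6 libraries. 33 of the 39 carry a Suz12 peak at the start site.

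Among GATA, T-box and Hand factors, which act in heart, limb and blood development, 14 of 19 rose and 3 fell (median 2.43). Tbx15 went from 3.86, 4.57 and 4.38 CPM to 41.1, 43.3 and 41.8 CPM (3.29, SE 0.0963, adjusted p = 2.35e-10) and the heart and limb factor Tbx5 from 0.138, 0.187 and 0 CPM (6 counts) to 7.23, 7.04 and 8.90 CPM (484 counts). Gata6, a factor of endoderm and heart, went from 0.344, 0.839 and 0.567 CPM to 11.2, 9.39 and 15.1 CPM (4.28, SE 0.265). T, the mesoderm factor brachyury, was the largest fall of this group (-1.11, SE 0.299), from 1.38, 1.12 and 1.08 CPM to 0.226, 0.597 and 0.679 CPM. Tbx3, which ES cells are known to express, was at 261, 256 and 230.5 CPM in WT and at 234, 254 and 266 CPM in dKO (0.01, adjusted p = 0.886).

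Of the Sox and Pax factors 14 of 21 rose and 4 fell (median 1.48), and of the LIM, Nkx, Irx and sine oculis homeobox factors 15 of 20 rose and 3 fell (median 2.37). Pax8, a thyroid and kidney factor, went from 0.138, 0.0466 and 0.155 CPM to 3.32, 4.69 and 3.47 CPM (5.08, SE 0.373), and the neural crest factor Sox10 had 2 counts in WT against 102 in dKO (ratio 45.7, 95% counting interval 12.3 to 383). The motor neuron factors Isl1 and Isl2 both rose, Isl1 from 1.10, 1.54 and 1.19 CPM to 9.19, 9.86 and 9.58 CPM (2.88, SE 0.152). Some relatives fell. Sox11, a factor of neural progenitors, went from 38.6, 30.4 and 32.7 CPM to 13.6, 15.6 and 11.6 CPM (-1.31, SE 0.116), and Nkx1-2 from 17.1, 15.7 and 15.3 CPM to 1.66, 1.54 and 1.72 CPM (-3.29, SE 0.12). Six4 (-1.12) and Irx2 (-0.72) also fell.

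Forkhead genes and the neurogenic bHLH and Zic genes did not lean as far. Of 28 forkhead genes 14 rose and 10 fell (median 0.15): Foxa1, at under 1 CPM in WT, rose by 3.403, Foxf1 had 3 counts in WT against 121 in dKO (ratio 36.2, 95% counting interval 12.1 to 178), and Foxo4 went from 56.9, 55.5 and 56.8 CPM to 25.4, 26.8 and 27.7 CPM (-1.08, SE 0.0674). Of 13 bHLH and Zic genes 6 rose and 6 fell (median -0.16). Zic1 went from 1 count to 37, while Zic2 fell by 1.07. The oligodendrocyte factor Olig2 went from 25.3, 26.4 and 22.7 CPM to 94.2, 89.4 and 73.0 CPM (1.78, SE 0.1). The bHLH inhibitor Id4 fell by 2.01 and the neuronal factor Neurod1 by 3.02.

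Secreted ligands rose in several families. Of 16 Wnt ligands and secreted inhibitors 13 rose and 2 fell (median 2.45), of 10 FGF ligands 7 rose and 2 fell (1.62), and of 20 BMP, GDF and TGF-beta ligands and antagonists 12 rose and 5 fell (1.06). Lefty2, an inhibitor of Nodal signalling, was at 43.4, 49.0 and 37.2 CPM in WT and at 384, 364 and 455 CPM in dKO (3.21, SE 0.107, adjusted p = 5.68e-10), while Nodal itself went from 102, 106 and 104 CPM to 61.9, 61.4 and 74.4 CPM (-0.65, SE 0.0751). Tgfb1 went from 2.69, 2.52 and 2.63 CPM to 13.9, 15.6 and 17.8 CPM (2.60, SE 0.13). Fgf15, an endocrine FGF of the gut and a factor of the neural tube, went from 0.413, 0.187 and 0.309 CPM to 12.1, 11.3 and 6.07 CPM (5.04, SE 0.37). Fgf17 went the opposite way, from 6.47, 6.29 and 7.27 CPM to 0.0753, 0.299 and 0.240 CPM (-4.85, SE 0.245), and Fgf21 and Wnt5b fell by 1.65 and 1.93. The secreted Wnt modulators Dkk3 and Sfrp1 rose by 1.51 and 0.50, Sfrp1 from 549.9, 541 and 517 CPM to 771, 783 and 724 CPM. Fgf4, the FGF ligand ES cells are known for, did not pass.

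Hedgehog and Notch genes, listed from ligands to targets, changed in both directions. Of 22 tested 9 rose and 7 fell (median 0.19). The hedgehog receptor Ptch1 went from 65.8, 65.3 and 65.6 CPM to 33.8, 38.5 and 38.8 CPM (-0.82, SE 0.0685) and the transcription factor Gli2 from 132, 121 and 132 CPM to 38.3, 47.9 and 53.4 CPM (-1.46, SE 0.104). The hedgehog ligand Dhh, by contrast, rose by 3.18. The Notch ligand Jag2 rose by 1.87 and the target Hes1 fell by 0.90 (84.4, 82.9 and 88.3 CPM, then 45.7, 43.1 and 48.6 CPM). Notch1 and Notch3 did not pass (0.22 and 0.25, adjusted p = 0.0684 and 0.113), and both were lower in dKO replicate 3 than in the other dKO libraries.

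Guidance and contact receptors rose more often than they fell. Of 20 ephrins and Eph receptors 12 rose and 2 fell (median 1.07), and of 39 semaphorins, plexins, netrins, slits and robos 22 rose and 6 fell (median 0.62). The receptor Ephb2 went from 11.6, 11.1 and 10.6 CPM to 76.8, 71.6 and 78.2 CPM (2.77, SE 0.0842, adjusted p = 2.57e-10) and its ligand family member Efnb3 from 2.75, 2.47 and 3.197 CPM to 21.8, 19.8 and 15.7 CPM (2.76, SE 0.157). Ephb4 went down, from 117, 118 and 125 CPM to 42.9, 49.6 and 56.3 CPM (-1.27, SE 0.0867), and Ephb3 did not pass (-0.02). The B-class Eph receptors thus included a rise, a fall and a member within the spread. Slit3 rose by 3.68 and Sema3f by 2.99. The Robo genes diverged, with Robo2 and Robo4 rising from 2 counts each in WT to 44 and 47 in dKO and Robo1 going from 43.7, 37.2 and 41.8 CPM to 15.3, 16.5 and 15.5 CPM (-1.37, SE 0.0805).

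Collagens were another one-sided group, with 23 of 29 rising, 1 falling and a median of 2.39. Col4a1 and Col4a2, the basement membrane pair that share a promoter region, went from 8.40, 9.47 and 9.13 CPM to 124, 132 and 105 CPM (3.73, SE 0.111, adjusted p = 2.35e-10) and from 4.54, 6.95 and 7.73 CPM to 87.2, 86.5 and 64.0 CPM (3.60, SE 0.175). Col2a1, the cartilage collagen, went from 2.41, 2.75 and 2.42 CPM to 17.3, 14.3 and 14.5 CPM (2.59, SE 0.133). The one fall was Col18a1, the source of endostatin, from 246, 246 and 283 CPM to 113, 116 and 119.8 CPM (-1.15, SE 0.0668). The summed level of the 44 listed collagens was 303 to 349.8 CPM in WT and 390.2 to 467 CPM in dKO.

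Laminins and nidogens, which lie in the same basement membranes, were mixed: 5 of 11 rose and 4 fell (median -0.03). Lama4 rose by 2.80 (SE 0.189) and Lamb2 by 0.54, Lama3 fell by 1.12 (SE 0.115), and Lamc1 went from 1290.3, 1217 and 1323 CPM to 772, 849.5 and 660.3 CPM (-0.75, SE 0.0798). Among 20 integrins 12 rose and 3 fell (median 0.45). Itgb1, the shared beta subunit of many integrins, went from 187, 195 and 201 CPM to 386, 374 and 343 CPM (0.92, SE 0.058), and its partner Itga3 from 19.97, 18.04 and 20.9 CPM to 81.6, 85.8 and 76.1 CPM (2.05, SE 0.0852). The fibronectin receptor subunit Itga5 did not pass (-0.13).

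Epithelial genes changed in both directions. The paired keratins Krt8 and Krt18 of simple epithelia went from 5.03, 4.48 and 4.23 CPM to 23.1, 24.1 and 40.9 CPM (2.70, SE 0.213) and from 3.72, 4.01 and 3.56 CPM to 27.7, 28.8 and 45.1 CPM (3.17, SE 0.191). Both were highest in dKO replicate 3, and 7 of 13 tested keratins rose and 2 fell. Of 11 claudins, the strands of tight junctions, 5 rose and 3 fell: Cldn6 went from 7.64, 6.43 and 7.89 CPM to 69.2, 70.2 and 58.5 CPM (3.17, SE 0.112) while Cldn7 and Cldn3 did not pass (-0.10 and 0.05). Of 12 cadherins named Cdh 8 rose and 2 fell. E-cadherin, Cdh1, went from 1064, 1076 and 1043 CPM to 745, 724 and 754 CPM (-0.52, SE 0.0515), and Cdh4 rose by 3.97 (1.31, 1.17 and 1.08 CPM, then 18.8, 18.9 and 17.8 CPM). Of the 16 tested clustered protocadherins, which share sequence and constant exons and are uncertain, 3 rose and 4 fell. The rises were 1 without WT replicate 1 or dKO replicate 2 and 5 without dKO replicate 3.

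**Figure D3:**
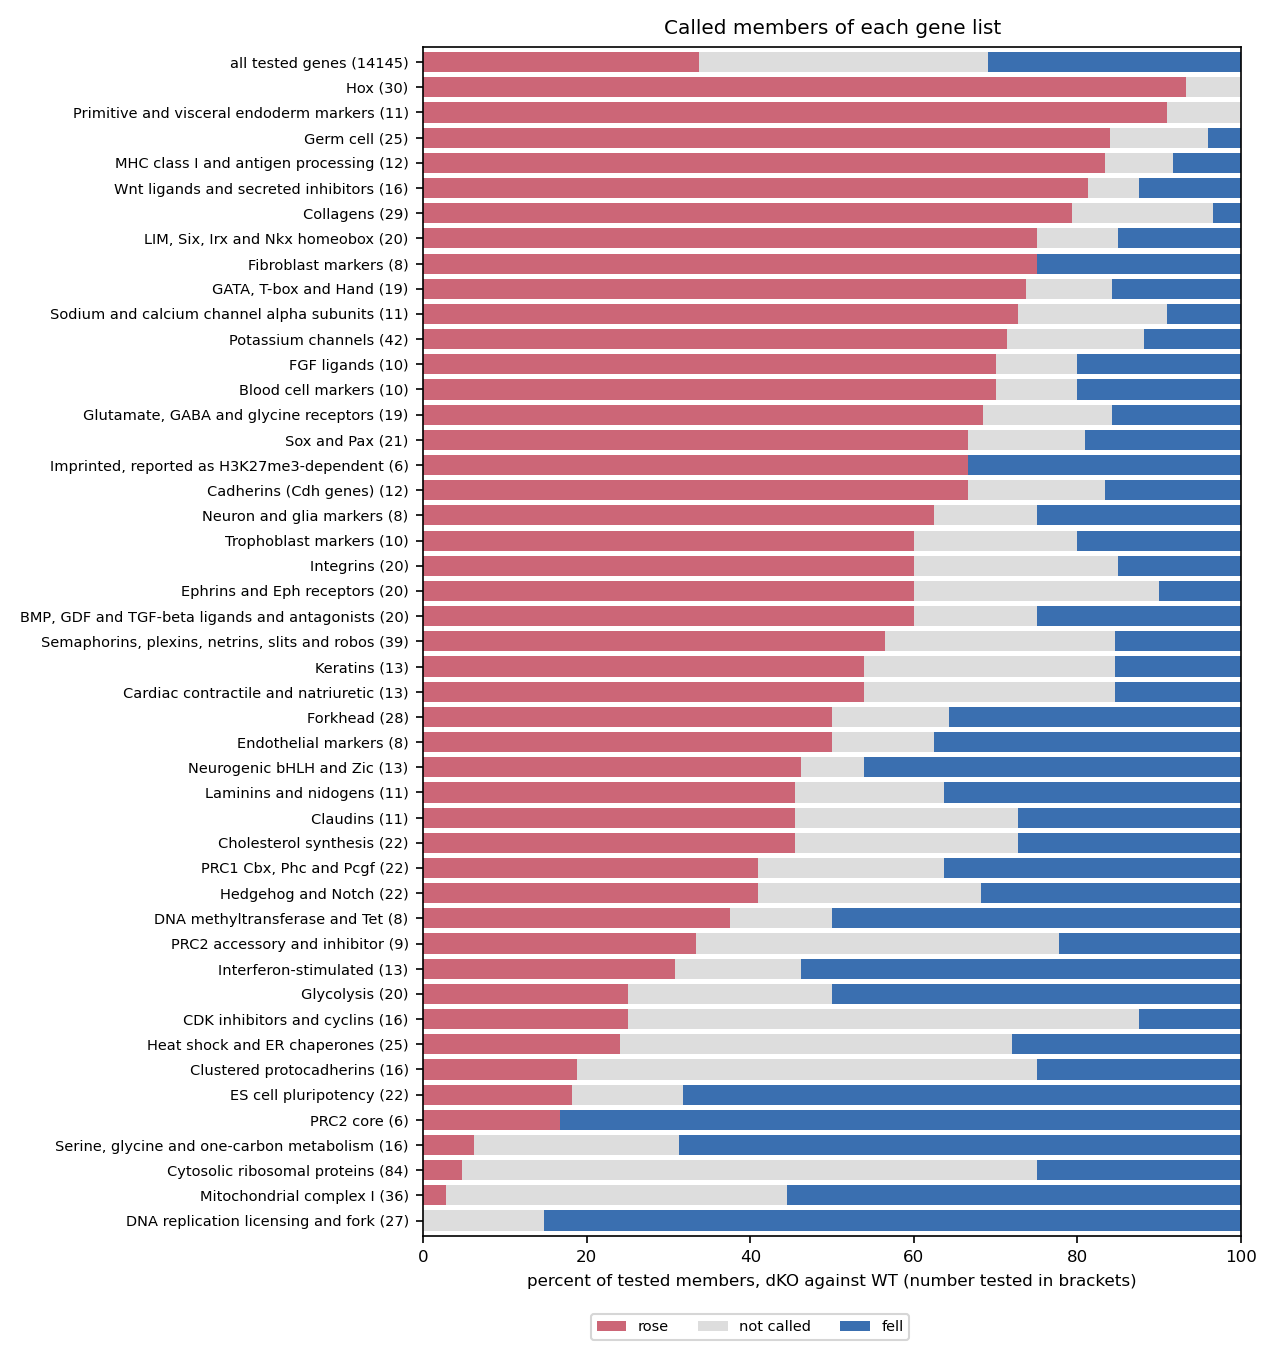
Percent of the tested members of each gene list that rose (left, red), were not called (grey) and fell (right, blue) in dKO against WT, with the number tested in brackets and all 14145 tested genes at the top. Hox genes stand at one end with 28 of 30 rising, and replication genes at the other with 23 of 27 falling.

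Genes of excitable cells rose as well. Of 42 potassium channel genes 30 rose and 5 fell (median 1.43), of 11 sodium and calcium channel alpha subunits 8 rose and 1 fell (2.04), and of 19 glutamate, GABA and glycine receptor genes 13 rose and 3 fell (1.07). Kcnab2, an auxiliary potassium channel subunit, went from 2.41, 3.50 and 2.99 CPM to 28.3, 27.5 and 27.7 CPM (3.21, SE 0.147), and Grin1, the shared subunit of NMDA receptors, from 2.48, 2.98 and 2.48 CPM to 18.2, 16.9 and 17.8 CPM (2.72, SE 0.12). The 3 dKO libraries were close for both. Kcnt2 fell by 3.44 (SE 0.168), from 6.75, 6.71 and 6.65 CPM to 0.527, 0.683 and 0.599 CPM, and the sodium channel Scn3a by 1.00. Among 13 tested cardiac genes 7 rose and 2 fell: the atrial myosin Myh6 had 4 counts in WT and was at 6.48, 6.27 and 4.99 CPM in dKO, while the giant muscle protein gene Ttn went from 23.4, 18.1 and 26.0 CPM to 2.11, 2.52 and 3.99 CPM (-2.91, SE 0.201).

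Germline genes rose in 21 of 25 cases, all 25 having passed the filter, with a median of 1.90. Rhox5, an X-linked homeobox gene of reproductive tissue, went from 137, 140.0 and 134 CPM to 522, 496 and 517 CPM (1.90, SE 0.0637, adjusted p = 5.68e-10), and the meiotic recombination gene Tex11 from 17.8, 16.9 and 17.4 CPM to 85.8, 80.0 and 83.3 CPM (2.26, SE 0.0765). Piwil2, of the piRNA pathway, went from 19.1, 19.96 and 20.3 CPM to 139.5, 158 and 113 CPM (2.78, SE 0.114). Sycp3, of the synaptonemal complex, was the exception that fell (-1.23, SE 0.196), from 15.7, 16.6 and 19.7 CPM to 5.73, 6.02 and 10.0 CPM, while Sycp1 and Sycp2 of the same structure rose, Sycp1 by 1.81 and Sycp2 from 2 counts to 69. A Suz12 peak at the start site is carried by 7 of the 25, against 3777 of the 14145 tested genes. The summed level of the list was 529 to 541 CPM in WT and 1371 to 1466 CPM in dKO.

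Sfmbt2 led a short list of genes known for imprinting through H3K27 methylation. It encodes a Polycomb-associated protein and went from 43.2, 45.7 and 39.5 CPM to 467, 516 and 484 CPM (3.51, SE 0.0706, adjusted p = 2.47e-11), an 11.4-fold rise. Smoc1 rose by 1.04 (SE 0.0639), and Slc38a4 and Gab1 by 0.24 and 0.16. Jade1 and Otx2 fell by 0.49 and 0.76. All 6 tested genes of the list were thus called, 4 up and 2 down, with changes far apart in size. The rises were 2 without WT replicate 1 and also without WT replicate 2.

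MHC class I and antigen processing genes rose in 10 of 12 cases (median 2.04). H2-K1, a classical class I heavy chain, went from 16.2, 16.6 and 19.96 CPM to 97.0, 96.8 and 90.8 CPM (2.43, SE 0.087, adjusted p = 8.88e-10), though reads may be shared with related H2 genes. B2m, its light chain, went from 44.5, 43.6 and 44.4 CPM to 134, 111 and 109 CPM (1.42, SE 0.0921). The immunoproteasome subunit Psmb9 went from 0.689, 0.979 and 1.03 CPM to 20.9, 18.1 and 17.2 CPM (4.34, SE 0.165). The transporter Tap1 and the class I transactivator Nlrc5 rose by 2.57 and 3.76, Nlrc5 from 6 counts in WT to 96 in dKO. Genes of heavy chain, light chain, transport and peptide supply were thus among the rises. Of the 12 tested members, 1 fell and 1 was not called. 9 of the 13 listed genes carry a Suz12 peak at the start site.

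Interferon-stimulated genes did not move with them: of 13 tested, 4 rose and 7 fell (median -0.21). The RNA sensor Ddx58 went from 43.9, 45.0 and 40.7 CPM to 7.99, 7.17 and 8.42 CPM (-2.46, SE 0.0905) and the antiviral membrane protein Ifitm3 from 189, 182 and 215 CPM to 52.3, 52.6 and 40.0 CPM (-2.02, SE 0.102). Bst2 rose by 1.34 and Oasl2 by 3.82, Oasl2 from 6 counts in WT to 102 in dKO.

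Cell cycle genes split by function. Of 16 CDK inhibitors and cyclins 4 rose and 2 fell, and 10 did not pass. Apart from Ccnd2, the largest rise was Cdkn1c, an imprinted CDK inhibitor, from 1.51, 1.87 and 1.70 CPM to 11.1, 13.1 and 22.3 CPM (3.19, SE 0.264), highest in dKO replicate 3. Cdkn2a, a known Polycomb target in fibroblasts, was at 41.9, 42.4 and 39.3 CPM in WT and at 54.8, 48.2 and 43.2 CPM in dKO (0.24, adjusted p = 0.0609). Without dKO replicate 3, 7 of the 16 rose. Ccna2, on chromosome 3, was at 467, 477 and 452 CPM in WT and at 473, 458 and 355 CPM in dKO (-0.12).

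DNA replication genes fell together by small amounts, 23 of 27 with a median of -0.43. Mcm3, of the replicative helicase, went from 822, 836 and 816 CPM to 538, 513 and 536 CPM (-0.64, SE 0.0476, adjusted p = 2.87e-07), the polymerase subunit Pola1 from 302, 305 and 300.5 CPM to 161, 172 and 154 CPM (-0.90, SE 0.0563), and the origin subunit Orc1 from 135, 129 and 130.3 CPM to 78.2, 77.6 and 86.0 CPM (-0.71, SE 0.0583). The 4 members that did not pass lay between -0.12 and 0.07. The summed level of the 27 genes was 6846 to 7101 CPM in WT and 4855 to 5162 CPM in dKO. Mitotic cyclins Ccnb1 and Ccnb2 did not pass (-0.12 and -0.04).

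Metabolic groups were mostly a little lower. In serine, glycine and one-carbon metabolism 11 of 16 fell and 1 rose (median -0.36), in complex I of the respiratory chain 20 of 36 fell and 1 rose (-0.23), and in glycolysis 10 of 20 fell and 5 rose (-0.17). Among all tested genes at 100 CPM or more, 52.2% fell, with a median of -0.19. Complex I and glycolysis lay near these values. The phosphatase Psph of serine synthesis went from 120.5, 122 and 120.5 CPM to 67.7, 65.3 and 62.8 CPM (-0.89, SE 0.0538), whereas Gldc of glycine cleavage went from 152, 149 and 145 CPM to 255, 261 and 322 CPM (0.91, SE 0.0799). The lactate dehydrogenase genes moved apart, Ldhb from 373, 374 and 347 CPM to 118, 105 and 87.5 CPM (-1.82, SE 0.0915) and Ldha rising by 0.66. Cholesterol synthesis was mixed, with 10 of 22 rising and 6 falling (0.08), or 6 rising without WT replicate 1, and its largest rise, Ebp (0.76), lies in the first 20 Mb of chromosome X.

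Ribosomal protein genes served as a group of abundant housekeeping genes. Of 84 tested, 59 did not pass, 21 fell and 4 rose, with a median of -0.13, and pseudogene copies make single genes uncertain. Their summed level was 23496 to 25404 CPM in WT and 19870.2 to 22181 CPM in dKO. Of 25 chaperone and stress genes 6 rose and 7 fell (median -0.01). The chaperone Hspa5 of the endoplasmic reticulum went from 788, 821 and 796 CPM to 1323, 1256 and 1197 CPM (0.65, SE 0.0546), while the stress response factors Atf4 and Ddit3 fell by 0.94 and 1.62. Signs of stress thus did not move 1 way.

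Markers of other cell types were listed to show what else the cultures could hold. Of 11 primitive and visceral endoderm markers 10 rose (median 2.43), and their summed level was 211 to 220.3 CPM in WT and 393 to 539.7 CPM in dKO. Col4a1 and the endoderm factor Gata4 (3.65, 4.57 and 4.23 CPM, then 26.9, 25.5 and 15.97 CPM, 2.43, SE 0.191) were among them, and Dab2 went from 0.551, 0.979 and 0.567 CPM to 8.44, 9.22 and 26.5 CPM (4.37, SE 0.535). Sox17 stayed under 1 CPM in all 6 libraries, and Afp and Ttr, secreted by mature visceral endoderm, were at most 0.240 CPM. Whether a share of endoderm cells adds to these values was not tested.

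Fibroblast markers were lower in sum, at 3688 to 4002 CPM in WT and 1890.2 to 2466 CPM in dKO, with 6 of 8 tested markers rising and Vim and Fn1 falling. Fn1, fibronectin, made up most of that sum and went from 3642, 3329 and 3387 CPM to 1915, 2381 and 1792 CPM (-0.77, SE 0.0947). Thy1 rose from 2.62, 1.73 and 1.13 CPM to 28.7, 30.8 and 30.1 CPM (4.08, SE 0.186). The fibroblast collagen Col1a1 reached at most 2.44 CPM, 4 of the 6 untested markers were at 0 in all 6 libraries, and Dcn and Postn did not exceed 0.151 CPM.

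Of 10 trophoblast markers 6 rose and 2 fell, among 8 neuron and glia markers 5 rose and 2 fell, among 8 endothelial markers 4 rose and 3 fell, and among 10 blood markers 7 rose and 2 fell. With a filter at 2 CPM, 0 endothelial markers rose and 3 fell. The medians of the 4 lists were 2.12, 1.297, 1.27 and 1.68. Summed trophoblast levels were 226 to 241 CPM in WT and 302 to 336 CPM in dKO. A sum depends mainly on the most abundant members, and the other sums were lower in dKO although more members rose than fell. For neuron and glia markers the sum was 401 to 475 CPM in dKO against 495 to 579 CPM in WT. For endothelial markers it was 261 to 284 CPM against 367 to 378 CPM, and for blood markers 252 to 293 CPM against 315 to 347 CPM. The neural stem cell filament Nes went from 17.2, 19.3 and 16.5 CPM to 104, 113 and 91.1 CPM (2.53, SE 0.0975), while the neuronal genes Stmn2 and Tubb3 fell by 1.31 and 0.63. Hand1, of trophoblast and heart, had 4 counts in WT and was at 2.56, 1.88 and 6.07 CPM in dKO, highest in dKO replicate 3. The blood factors Gata1, in the first 20 Mb of chromosome X, and Runx1 rose by 3.68 and 2.53 but stayed under 4.1 CPM.

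Some defining markers of those types were at or near 0 in dKO and others were higher than in WT. Ptprc, the pan-leukocyte antigen, had no count in dKO, Hbb-bt and Prl3d1 had none in any of the 6 libraries, Snap25 was at most 0.0753 CPM and Gfap at most 0.256 CPM in dKO. Cdh5, of endothelium, had 0 counts in WT and 37 in dKO, at 0.527, 0.299 and 0.918 CPM, and was at least 11.1-fold higher, taking 3 counts over the WT group as the floor. Elf5, of trophoblast, went from 1 count to 36. The part of such cells in the other results was not tested. Of the 12 genes known for the 2-cell-like state of ES cultures only Eif1a and Tmem92 passed the filter, and neither was called (-0.04 and 0.50).

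**Figure D4:**
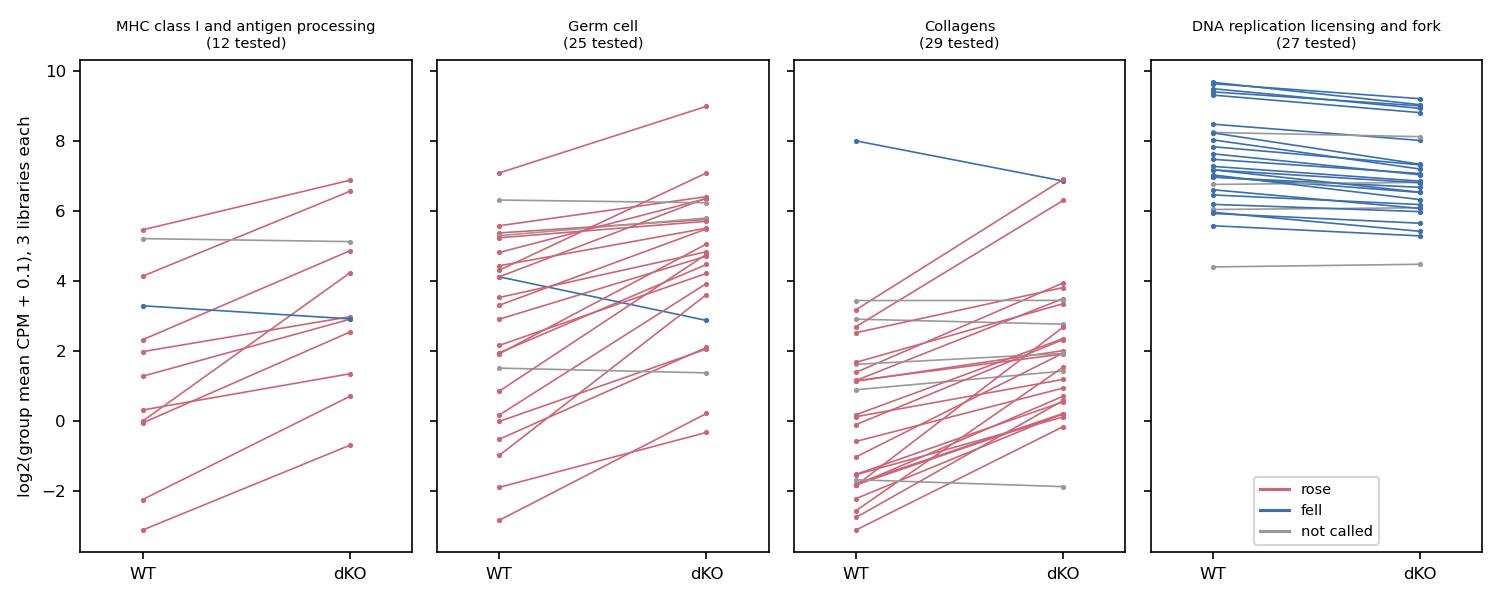
Log2 of the mean CPM plus 0.1 in WT and dKO (3 libraries each) of the tested genes of 4 lists, 1 line a gene, coloured by whether it rose, fell or was not called. Germ cell genes and collagens rise from a wide range of WT levels, with Col18a1 as the one collagen that fell, and replication genes fall by similar small steps (median -0.43).

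The dKO libraries also differed among themselves, mostly through dKO replicate 3. Fos, an immediate early gene, was at 15.1, 15.6 and 16.8 CPM in WT and at 74.1, 51.3 and 12.7 CPM in dKO (1.51, SE 0.527, adjusted p = 0.0334). H2-Eb1, of MHC class II, was at 12.05, 11.3 and 12.6 CPM in WT and at 39.7, 40.0 and 9.94 CPM in dKO (1.298, SE 0.457, adjusted p = 0.0349). For both genes dKO replicate 3 lay below every WT library, and neither passed in most fits that left out 1 library. Apba2, a neuronal adaptor protein, was at 17.1, 19.2 and 4.83 CPM in dKO against at most 0.839 CPM in WT (4.46, SE 0.591). Alg13, a glycosylation enzyme gene on chromosome X, was at 868, 890.2 and 887 CPM in WT and at 113, 116 and 450.2 CPM in dKO (-1.95, SE 0.527). Dpp6, a potassium channel partner, was at 36.4, 39.5 and 41.3 CPM in WT and at 12.9, 13.1 and 4.15 CPM in dKO (-1.999, SE 0.313). Id3, Ly6a and Slc28a3 were highest in dKO replicate 3, at 9.50, 13.3 and 13.3 CPM. Without that library Alg13 fell by 2.94, and the rises of Id3, Slc28a3 and H2-Eb1 were 1.51, 2.72 and 1.73.

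Whole chromosomes moved with that library. Against the mean of WT, the median log2 difference of chromosome 3 was 0.12, 0.12 and -0.32 in dKO replicates 1, 2 and 3, and that of chromosome 14 was -0.01, -0.01 and -0.18. All other chromosomes lay closer together. Within the first 20 Mb of chromosome X, 52 genes with no peak and at least 2 CPM had a median of 0.68, alike in the 3 dKO libraries (0.62, 0.61 and 0.60). Leaving out chromosomes 3 and 14 and that segment took their members out of the lists. The count of called members moved by over 1.5 times in 3 lists and the balance became even in others, as the closing section gives. Of the genes named above, Sox2, Tet2, Tbx15, Sycp1, Jade1, Ccna2, Postn, Nes and Stmn2 lie on chromosome 3, and Atp12a, Klf5, Zic2, Fgf17, Myh6, Piwil2, Otx2 and Gata4 on chromosome 14. The part of these chromosome-wide differences in the values of single genes was not tested.

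**Figure D5:**
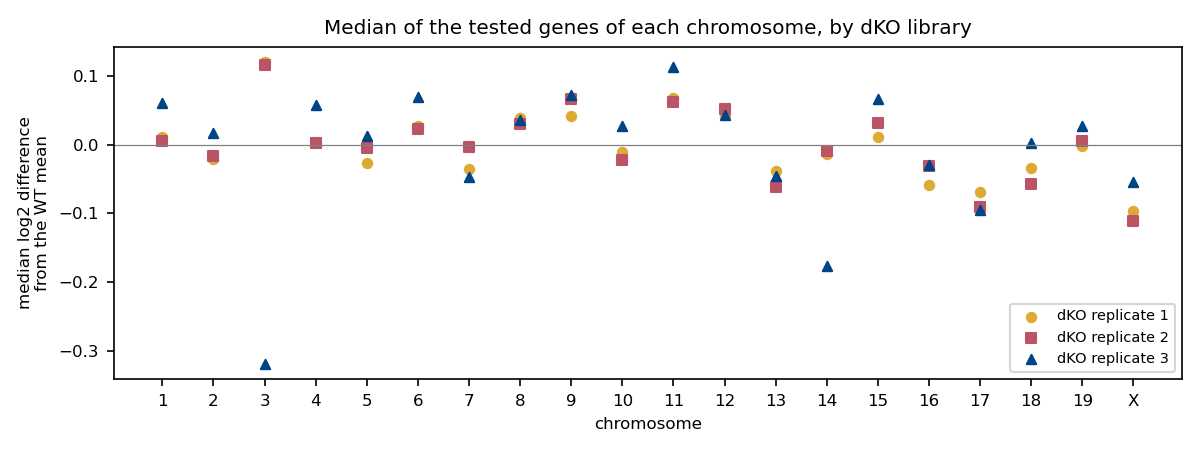
Median log2 difference of each dKO library from the mean of WT, by chromosome. Chromosome 3 lies at 0.12, 0.12 and -0.32 and chromosome 14 at -0.01, -0.01 and -0.18 in dKO replicates 1, 2 and 3.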

How the data were processed

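Libraries of polyadenylated RNA (9 samples) were made with TruSeq RNA Library Prep Kit v2 per the labels' protocols. That chemistry keeps no strand information, so antisense and overlapping genes cannot be told apart. The submitters' processing notes name Trimmomatic, STAR 2.4.0, HTSeq and mm10; how HTSeq was set and which gene models it used is not given in the sources used here. The authors deposited read counts per gene, not normalized (24222 genes, 0 entries naming no gene). The deposited Suz12 list is of another kind: it gives peak positions with no value (other than coordinates, nothing was used), and its caller is not given in the sources used here. Of 71 samples, 9 RNA libraries and this peak list were used; 2 samples whose title and antibody disagree were put in no group.

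edgeR 4.0.16 (R 4.3.3; TMM, filterByExpr, robust glmQLFit, glmQLFTest) was fitted to the 9 libraries together, one mean for each of the groups, leaving 6 residual degrees of freedom, and was tested on simulated data. Counting intervals are exact at 95% and, like the floor of 3 counts, cover counting error only. In the RefSeq tables (GRCm38.p6) 22859 genes were found under their symbol, 1205 under a synonym and 158 under neither. A gene's peak class is the widest peak within 1 kb of a RefSeq start site, or of either gene end where no promoter is listed. Named genes are Ezh1, Ezh2, Eed and Suz12, the 12 largest rises and falls with no overlap of libraries and at least 20 CPM in the higher group (clone and predicted-gene identifiers left out), up to 4 called members by adjusted p and 2 not called members by level per list, the 8 called genes of at least 5 CPM with the widest spread among dKO libraries, and the 8 highest genes with 0 to 3 counts in each library of the other group; others were named after their values were seen. Some genes that these rules name are not reported here. The 47 gene lists, the tests and these rules were chosen with earlier results of these data known. Alternatives were DESeq2 size factors and DESeq2 1.42.0, other filters, other libraries, a replicate block and other peak windows.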

Additional observations from a re-analysis of the deposited data

How the results depend on the processing

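No named gene that was called in either fit changed sign in an alternative fit, and no called gene was called in the opposite direction. Over the alternatives other than the 2 CPM filter, 4382 to 5239 genes rose and 3894 to 4744 fell, and over the genes tested in both fits the log2 fold changes shifted by a median of at most 0.019 in size. A filter at a mean of 2 CPM, which tests fewer genes (11738), shifted them by a median of 0.064 and left 1495 rises and 410 falls of over 2-fold, 97 rises with a Suz12 peak of 3 kb or more, and medians of -0.080 on chromosome 17 and -0.13 on X. Under it the rises were 11 for Hox, 9 for GATA, T-box and Hand, 4 for Sox and Pax, 6 for LIM, Nkx, Irx and sine oculis factors, 7 for forkhead, 3 for bHLH and Zic, 4 for Wnt, 5 for BMP, 14 for semaphorins and relatives, 11 for collagens, 4 for keratins, 2 for claudins, 4 for cadherins, 0 for clustered protocadherins, 14 for potassium channels, 1 for sodium and calcium channels, 7 for glutamate, GABA and glycine receptors, 7 for CDK inhibitors and cyclins, 2 for complex I, 3 for trophoblast, 0 for endothelial and 3 for blood markers. The falls were 1 each for GATA, FGF, keratins, claudins, cadherins, glutamate receptors, cardiac genes and trophoblast, 6 for forkhead, 3 for potassium channels, 11 for ribosomal proteins and 0 for MHC class I. The balance thus turned for endothelial markers (0 rises, 3 falls) and for chaperone and stress genes (7 and 6), and was even for Sox and Pax (4 and 4) and for sodium and calcium channels (1 and 1). Members under this filter's level were not tested, so these counts are of fewer members. Of the named genes tested under it, 245 were called or not called as before, 3 were newly called and 0 lost a call. With no filter 16 keratins and 5 clustered protocadherins rose, the latter against 4 that fell, and the medians of chromosomes 11, 17 and X were 0.15, -0.041 and 0.00.

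With WT and dKO libraries alone, 13902 genes were tested, of which 4523 rose and 4060 fell. In that fit 0 PRC2 core genes rose, endothelial rises and falls were 3 each, and 1 keratin, 1 cardiac gene and 1 trophoblast marker fell. DESeq2's Wald test called a fall for 1 keratin. The numbers of the replicates did not pair the libraries (correlations of same-numbered deviations 0.016, -0.032 and 0.037), and the replicate block gave 4750 rises and 4398 falls, with 1 keratin and 1 trophoblast marker falling. Leaving out chromosomes 3 and 14 and the first 20 Mb of X, chosen after seeing the data, took members out of lists, so that 16 of 46 lists had the counts they had before, and gave 1 fall for FGF ligands, 0 for the imprinted list and 1 for neuron and glia markers. It also made rises and falls even in number for the DNA methylation genes, the Hedgehog and Notch genes and the PRC2 accessory and inhibitor genes. With 1 library left out at a time, rises ranged from 0 to 1 for the PRC2 core, 3 to 5 for PRC2 accessory genes, 1 to 5 for clustered protocadherins, 2 to 4 for the imprinted list, 3 to 7 for CDK inhibitors and cyclins, 6 to 10 for cholesterol synthesis and 1 to 2 for complex I. Falls ranged from 1 to 2 for keratins, sodium and calcium channels, cardiac genes and trophoblast markers and from 0 to 2 for MHC class I, and the median of chromosome 17 from -0.102 to -0.073. Rises of cholesterol genes were fewest without WT replicate 1, and those of CDK inhibitors and cyclins were most numerous without dKO replicate 3. The cause of these differences was not tested. Medians of the 6 lists with a gene at 0 counts in a group were the same with that gene at its bound of 3 counts.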
